A study of Homo sapiens with 6 samples.

Results

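Fatty acid oxidation and lipid storage were examined through 37 genes, chosen by name as enzymes, carriers, receptors and droplet proteins of fatty acid breakdown and triglyceride storage. All 37 were among the 13345 genes of the mRNA table. All 37 also reached the mean value of 10 asked of a gene before testing, as did 12723 genes in all. The samples were OE19 cells, a line from a human oesophageal adenocarcinoma with columnar features. In each of 3 independent experiments, 1 culture was transfected with a locked nucleic acid (LNA) inhibitor of miR-451a and 1 with Negative Control A, an LNA inhibitor control of the same product line. The comparison asked which mRNAs differ once miR-451a, a small RNA that represses its target mRNAs, is blocked. All samples thus carried a transfected oligonucleotide, and all came from 1 cell line. The protocols describe irradiation and mock irradiation of cells, but the sources used here do not say whether the sequenced cells were irradiated. miR-451a itself was not analysed here.

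Fatty acids are first joined to coenzyme A by acyl-CoA synthetases. Long-chain acyl-CoA then crosses into the mitochondrion as acylcarnitine, and β-oxidation shortens it in repeated rounds of dehydrogenation, hydration, a further dehydrogenation and thiolysis. Peroxisomes run a parallel pathway for very long and branched chains, while excess acyl-CoA is stored as triglyceride in lipid droplets, which epithelial tumour cells also build. The nuclear receptors PPARα and PPARγ are lipid-activated transcription factors of many of these genes.

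HADHA and HADHB, which encode the α and β subunits of the mitochondrial trifunctional protein, are shown by sequence because they are neighbours read in opposite directions from starts 307 bases apart. The window of 250 bases before and 50 after the HADHB start lies at chr2:26244689-26244988 (plus strand, RefSeq sequence, GRCh38.p14). The capitals mark the 194 bases that it shares with the window of HADHA.
HADHB: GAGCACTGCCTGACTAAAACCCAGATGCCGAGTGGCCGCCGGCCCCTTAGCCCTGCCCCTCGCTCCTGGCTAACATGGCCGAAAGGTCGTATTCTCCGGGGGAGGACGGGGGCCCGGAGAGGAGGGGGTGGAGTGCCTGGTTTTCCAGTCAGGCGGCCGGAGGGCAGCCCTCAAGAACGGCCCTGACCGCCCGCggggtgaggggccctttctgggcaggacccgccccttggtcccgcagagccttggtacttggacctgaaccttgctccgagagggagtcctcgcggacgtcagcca
Such windows were matched for 29 of the 37 genes, some with several starts, which gave 46 windows. The PPAR response element, read as AGGTCA, any base and AGGTCA again, was found on either strand in none of the 46 and in 0.0228% of 35116 windows of all genes. The estrogen-related receptor element TCAAGGTCA was found in none of the 46 and in 0.353% of all windows. With both elements this rare, none among 46 windows says little about these genes. The E-box CACGTG lay in 2 of the 46 windows, of ACAD9 and PLIN2 (7.26% of all windows). The cAMP response element TGACGTCA lay in 3 of the 46, of ACAD9 and ACOX3 (1.85%). The NRF1 element, read as GCGCA, any base and GCGC, lay in 3 of the 46, of ACAD9, ETFB and PPARA (5.78%). These matches describe letters in the windows and not binding.

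Values are the deposited normalized signal, which was adjusted within each sample for GC content and gene length and then scaled between samples. Values of a gene were compared between samples, and levels were not compared between genes. The whole numbers behind the values summed to between 14084387 in negative control 2 and 18726440 in negative control 1. Inhibitor sample 3 stood apart, since 12.4% of genes (those averaging 50 or more) deviated there by over 2-fold from the median of the remaining samples, against 0.559% to 1.93% in the other 5 samples. Negative control 2 and inhibitor sample 2 were the closest of the 15 pairs of samples, with a median absolute log2 difference of 0.070 over 8762 genes, against 0.12 to 0.38 in the other 14 pairs. Their median chi-square per gene was 0.916, and the other pairs gave 2.71 to 27.1. Counting of reads alone would give 0.455, but these whole numbers are adjusted counts, so that reference may not hold. All 12 columnar epithelial markers were measured, with summed values of 154962 to 219468 in the controls and 165945 to 231890 with the inhibitor. KRT8 and ERBB2 weighed most in these sums of normalized values, which does not rank the genes by level. ERBB2 was at 48410 to 90232 in the controls and 51756 to 109616 with the inhibitor. CDX2 had values of 40.3 to 126 and 46.6 to 133, and VIL1 was at 1398 in inhibitor sample 3 and at 3454 or more in the other samples. Of the 6 adipocyte markers only CIDEC was measured, with values of 5.34 to 27.9 in the controls and 2.08 to 9.11 with the inhibitor, and its part in any result was not tested. Of 8 fibroblast markers 3 were measured, with sums of 278 to 344 in the controls and 263 to 312 with the inhibitor. COL1A1 made up most of each sum, at 251 in inhibitor sample 3 and at most 338 in the other samples. VIM was at 32.2 in inhibitor sample 3 and at most 11.5 in the others, and DCN at 7.27 and at most 5.16. TTR of the hepatocyte markers was at 35.1 to 73.0 and 22.8 to 76.4, and VWF of the blood and endothelial markers at 1.03 to 6.56 and 4.05 to 31.1. The spans of CPT2, ACSL5, ACADVL, ACAD9, HADHA, ACAA1, ETFDH and DGAT1 overlap another protein-coding gene, so their values are uncertain where reads were shared.

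None of the 37 genes passed the limma test between the groups (adjusted p below 0.05 over the 12723 genes; 0% of all genes passed, and the smallest adjusted p was 0.899). None had an unadjusted limma p below 0.05, as 0.935% of all genes had, nor did any in edgeR (1.28% of all genes) or DESeq2 (1.97% of all genes). In none of the 37 did the groups separate without overlap, which 5.61% of all genes did. A log2 difference (inhibitor minus control, on the log2(value + 1) scale) above 0 was seen in 19 of the 37, or 51.4%, against 49.4% of all genes. The median difference was 0.011, with a median of -0.0035 over all genes, and the extremes were -0.44 for PLIN2 and 0.48 for ACAA2. The 95% interval lay within a 2-fold difference in either direction for 30 of the 37 (73.6% of all genes). For SLC25A20, ACAA2, HSD17B4, EHHADH, PPARG, DGAT1 and PLIN2 the interval reached past 2-fold, so that a difference of that size could not be told from none with these samples. In bulk RNA, fewer cells with a transcript and less transcript per cell cannot be told apart.

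**Figure D1:**
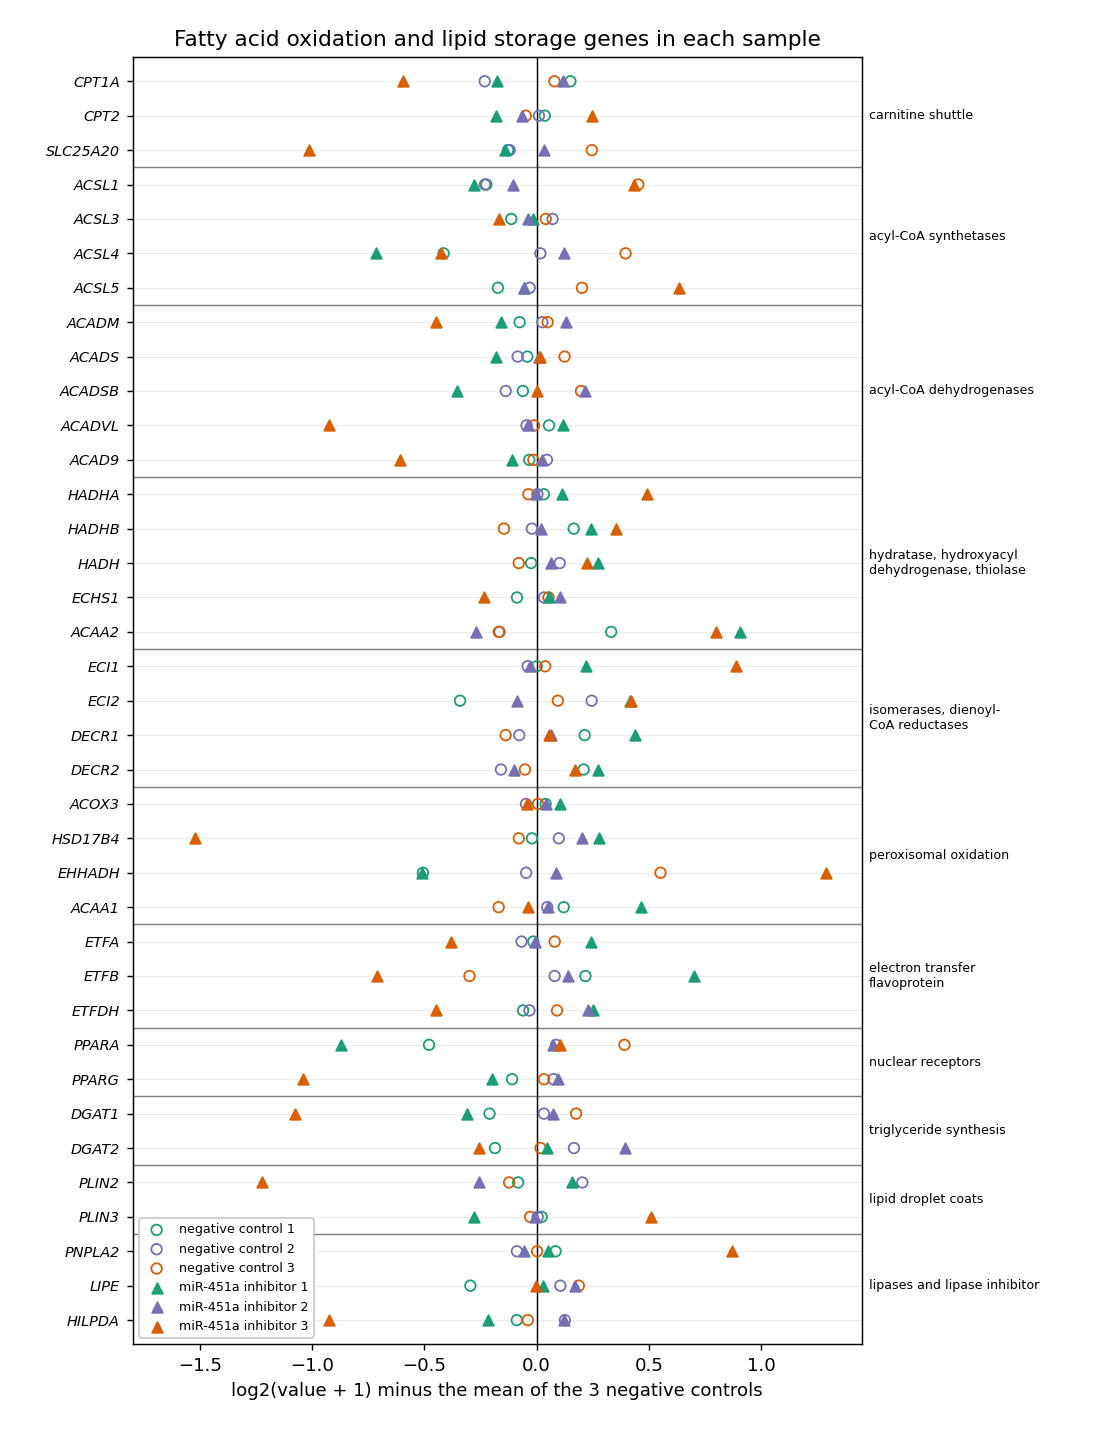
Value of each of the 37 genes in each of the 6 samples, as log2(value + 1) minus the mean of the 3 negative controls, with genes grouped by role. Open circles are negative controls, filled triangles are inhibitor samples and the colour gives the experiment, and in no gene do circles and triangles separate completely.

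The carnitine shuttle genes had differences of -0.22 (CPT1A), -0.00035 (CPT2) and -0.37 (SLC25A20), none past the test. CPT1A (ENSG00000110090.12, chr11:68754620-68844277, GRCh38) encodes the outer membrane carnitine palmitoyltransferase that sets the rate of long-chain entry. It had values of 5982, 4591 and 5694 in negative controls 1 to 3 and of 4774, 5854 and 3563 in inhibitor samples 1 to 3. Inhibitor sample 2 was near the highest control and inhibitor sample 3 was the lowest sample, which left a log2 difference of -0.22 ± 0.21 (SE, n = 3 per group). CPT2 (chr1:53196824-53214197), the inner membrane enzyme that returns the acyl group to coenzyme A, was measured at 277, 272 and 261 in the controls and 238, 258 and 321 with the inhibitor. Its group means, 270.4 ± 8.10 and 272 ± 42.9 (SD, n = 3), were almost the same, with an interval of -0.38 to 0.38 for the log2 difference. SLC25A20 (chr3:48856926-48898882), the carrier that exchanges acylcarnitine for carnitine, stood at 457, 459 and 592 in the controls and 452, 510.0 and 247 with the inhibitor. Its difference of -0.37 ± 0.28 rested on inhibitor sample 3, without which it was -0.055.

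Acyl-CoA synthetases, which activate fatty acids for either fate, had 2 of 4 members higher (49.4% of all genes) and a median of -0.027. ACSL3 (chr2:222861036-222944639), a synthetase of nascent lipid droplets, was the steadiest of the 4, at 2436, 2767 and 2710.1 in the controls and 2609, 2567 and 2346 with the inhibitor. Its difference of -0.073 ± 0.12 had an interval of -0.36 to 0.21. ACSL4 (chrX:109641335-109733257) prefers arachidonic acid and is known for its role in ferroptosis. Its values spread widely within both groups, with 360.2, 486 and 633 in the controls and 292, 523 and 357 with the inhibitor, and the difference was -0.34 ± 0.28. In experiment 2 the inhibitor sample was the higher of the pair, whereas it was the lower in experiments 1 and 3. ACSL5 (chr10:112374116-112428376), a mitochondrial and intestinal synthetase, gave 382, 422 and 496 in the controls and 414, 415 and 670.5 with the inhibitor. Inhibitor sample 3 was the highest sample and carried the difference of 0.17, which was -0.056 without it. ACSL1, the main synthetase of fat and heart, differed by 0.018 ± 0.25, and its high samples were the control and the inhibitor sample of experiment 3.

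The mitochondrial acyl-CoA dehydrogenases open each round of β-oxidation. By their mean, 5 of 5 were lower with the inhibitor, beside 6443 of all 12723 genes, with a median of -0.16. None of the 5 passed the test. Without inhibitor sample 3 the count was 4 of 5 and the median -0.042, and without inhibitor sample 2 the median was -0.30. Without negative control 3 or inhibitor sample 1 only 3 of 5 were lower. ACADVL (ENSG00000072778.19, chr17:7217125-7225266), the very long-chain enzyme, had values of 5292, 4938 and 5053 in the controls and 5518, 4963 and 2681 with the inhibitor. Inhibitor sample 1 was the highest of the 6 and inhibitor sample 3 the lowest, so the difference of -0.28 ± 0.27 became 0.039 without inhibitor sample 3. ACADM (chr1:75724709-75763679), the medium-chain enzyme, was found at 592, 636 and 646 in the controls and 559.5, 683 and 457 with the inhibitor. The inhibitor group held both its highest and its lowest sample, and the difference was -0.16 ± 0.17. ACAD9 (chr3:128879620-128913114), a dehydrogenase that also serves in complex I assembly, was the only one of the 5 that was lower with the inhibitor in each experiment, with log2 differences of -0.075, -0.023 and -0.60 in experiments 1 to 3. Its values were 896, 946 and 907 in the controls and 851, 931 and 599.9 with the inhibitor, and inhibitor samples 1 and 3 lay below all controls while inhibitor sample 2 lay among them. ACADS (short-chain) and ACADSB (short/branched-chain) differed by -0.052 and -0.046.

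Genes of the later mitochondrial steps were mostly higher by their mean. Of the hydratase, hydroxyacyl dehydrogenase and thiolase genes, 4 of 5 were higher (49.4% of all genes), with a median of 0.20. That median was 0.13 without inhibitor sample 3. HADHA (ENSG00000084754.10, chr2:26190635-26244632, minus strand) had values of 2206, 2163 and 2103 in the controls and 2334, 2150.5 and 3037 with the inhibitor. HADHB (ENSG00000138029.13, chr2:26244939-26290465), whose window is printed above, had 1593, 1399 and 1284 in the controls and 1679.7, 1438 and 1816 with the inhibitor. Both subunit genes were highest in inhibitor sample 3 and second highest in inhibitor sample 1, while inhibitor sample 2 fell within the controls. The log2 differences of the pair were 0.20 ± 0.15 and 0.21 ± 0.14, with intervals of -0.16 to 0.56 and -0.13 to 0.54. Without inhibitor sample 3 they were 0.055 and 0.13. By experiment they were 0.081, -0.0083 and 0.53 for HADHA and 0.077, 0.039 and 0.50 for HADHB, with the largest in experiment 3 for both.

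HADH (chr4:107989889-108035171), the short-chain hydroxyacyl-CoA dehydrogenase, had values of 1321, 1443 and 1271 in the controls and 1622, 1404 and 1569 with the inhibitor. Its difference of 0.19 ± 0.12 had the narrowest interval of this step, -0.095 to 0.47, and inhibitor sample 2 lay below negative control 2. ACAA2 (ENSG00000167315.17, on chromosome 18), the mitochondrial thiolase, had the largest positive difference of the 37. It was measured at 246, 174 and 174 in the controls and 366, 162 and 340.4 with the inhibitor. Inhibitor samples 1 and 3 were the highest and inhibitor sample 2 was the lowest of all 6, so the groups overlapped fully and the interval was -0.30 to 1.26. Without inhibitor sample 2 the difference was 0.85, with a limma adjusted p of 0.468, and under the other limma alternatives that p ran up to 0.9998. ECHS1, the enoyl-CoA hydratase, differed by -0.024 ± 0.14.

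The isomerases and dienoyl-CoA reductases prepare the double bonds of unsaturated fatty acids for β-oxidation. By their mean, 4 of 4 were higher with the inhibitor (49.4% of all genes), with a median of 0.22. The median was 0.11 without inhibitor sample 1, 0.33 without inhibitor sample 2 and 0.13 without inhibitor sample 3. ECI1 (ENSG00000167969.12, chr16:2239402-2251587), a mitochondrial enoyl-CoA isomerase, had the smallest p of the 37 and still did not pass (limma adjusted p = 0.899). Its values were 688, 669 and 706 in the controls, which lay close together, and 801, 673 and 1272 with the inhibitor. Inhibitor sample 2 matched the controls and inhibitor sample 3 was the highest, and the difference was 0.36 ± 0.23. Leaving out inhibitor sample 3 gave 0.095, and leaving out inhibitor sample 2 gave 0.55. DECR1 (mitochondrial) and DECR2 (peroxisomal), named after their values were seen, were higher with the inhibitor in each experiment. Their differences in experiments 1 to 3 were 0.23, 0.14 and 0.19 for DECR1 and 0.064, 0.056 and 0.22 for DECR2, and in both genes negative control 1 lay above at least 1 inhibitor sample. ECI2, measured at a low mean of 38.2 ± 7.87 in the controls and 45.6 ± 8.83 with the inhibitor (SD, n = 3), differed by 0.25 ± 0.30.

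**Figure D2:**
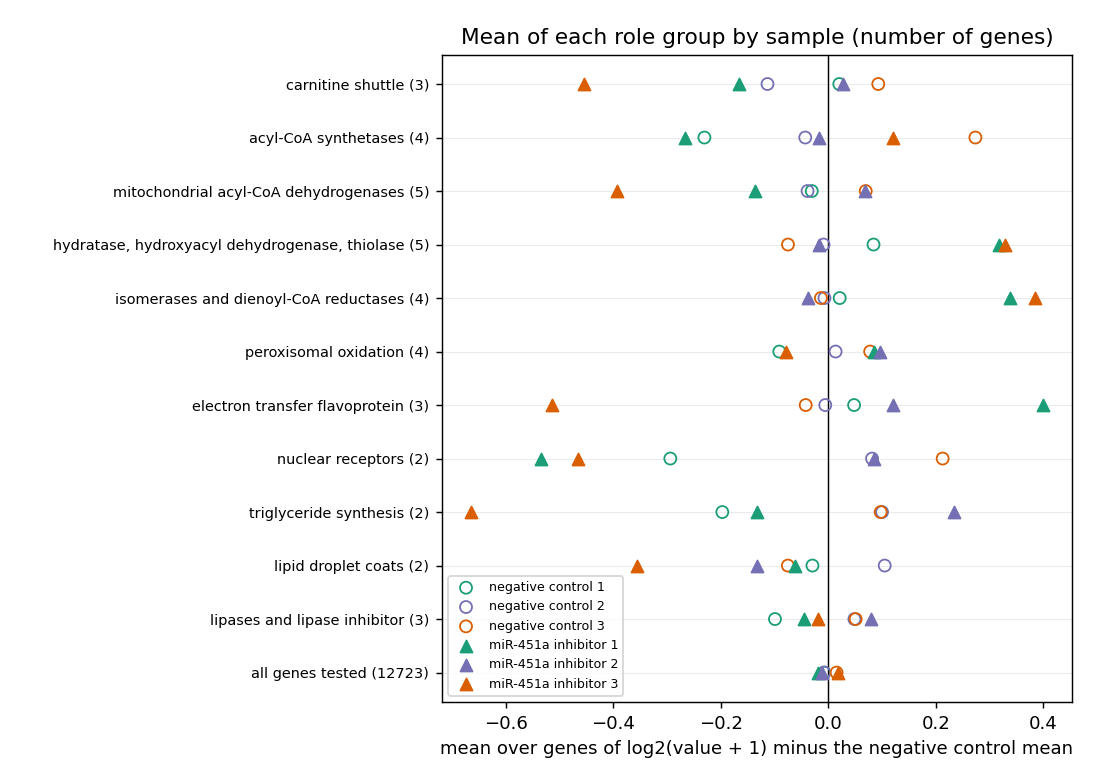
Mean over the genes of each role group of log2(value + 1) minus the negative control mean, for each of the 6 samples, with the number of genes in brackets and all 12723 tested genes in the last line. For the hydratase to thiolase group the values of inhibitor samples 1 and 3 are 0.32 and 0.33, and inhibitor sample 2 is at -0.017, next to the controls.

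Averaged over each role group, the inhibitor samples differed from each other. For the dehydrogenases the mean deviation from the controls was -0.14, 0.068 and -0.39 in inhibitor samples 1 to 3. For the hydratase to thiolase genes it was 0.32, -0.017 and 0.33, and for the isomerases and reductases 0.34, -0.039 and 0.38. Controls stayed within -0.075 to 0.084 in these 3 groups. They spanned wider ranges for some other groups, with -0.23 to 0.27 for the acyl-CoA synthetases, -0.29 to 0.21 for the nuclear receptors and -0.20 to 0.10 for triglyceride synthesis. For the electron transfer flavoprotein the range of the controls was narrower, at -0.042 to 0.048, and inhibitor samples 1 to 3 were at 0.40, 0.12 and -0.51. All genes tested averaged between -0.019 and 0.018 in every sample. Inhibitor sample 2 lay within the controls for the dehydrogenases and for the hydratase to thiolase genes, and just below them for the isomerases and reductases. These averages carry no test.

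For HSD17B4, EHHADH and the electron transfer genes the inhibitor samples differed widely from each other. The genes of peroxisomal oxidation and electron transfer are named after their values were seen. HSD17B4 (ENSG00000133835.14, chr5:119452497-119542332), the peroxisomal bifunctional enzyme, had values of 2199, 2389 and 2112 in the controls and 2704, 2567 and 775 with the inhibitor. Inhibitor samples 1 and 2 were above every control and inhibitor sample 3 was the lowest of all, which left a difference of -0.35 ± 0.45 and one of 0.24 without inhibitor sample 3. EHHADH, the other bifunctional enzyme, ran the opposite way in that sample, with 23.8, 33.1 and 50.6 in the controls and 23.7, 36.4 and 85.1 with the inhibitor. ACAA1, the peroxisomal thiolase, was higher with the inhibitor in each experiment, with log2 differences of 0.35, 0.0034 and 0.13. ACOX3, a branched-chain acyl-CoA oxidase, hardly varied, with 213 ± 6.51 in the controls and 218 ± 11.4 with the inhibitor (SD, n = 3).

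ETFA and ETFB encode the electron transfer flavoprotein that takes electrons from the dehydrogenases, and ETFDH encodes the dehydrogenase that passes them to ubiquinone. ETFB had values of 2545, 2315 and 1779 in the controls and 3559.6, 2412 and 1337 with the inhibitor. All 3 genes were highest in inhibitor sample 1 and lowest in inhibitor sample 3. Their group differences were -0.048 for ETFA, 0.044 for ETFB and 0.011 for ETFDH. Inhibitor sample 1 held the highest value of 11 of the 37 genes (20.2% of all genes), and all 11 were among the 24 oxidation genes.

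**Figure D3:**
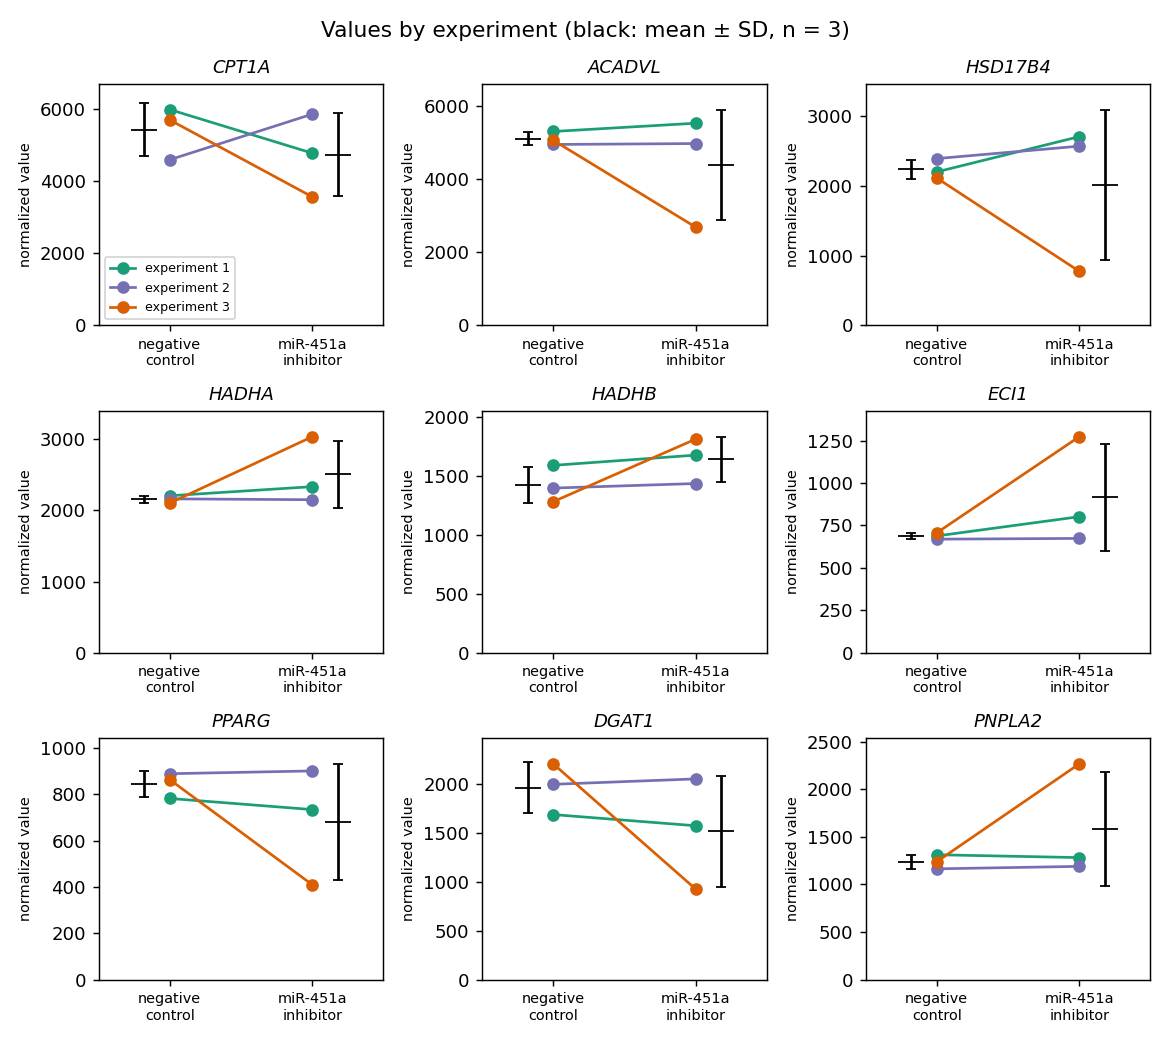
Normalized value of 9 genes in the negative control and the inhibitor sample of each experiment, joined by lines, on axes that start at 0, with the group mean and SD (n = 3) in black. The lines of experiment 3 have the steepest slope in all 9 panels, and HSD17B4 goes from 2112 to 775 there.

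Among the regulators, PPARA and PPARG were lower by their mean with the inhibitor, and neither passed the test. PPARA (chr22:46150526-46243756), the receptor best known for inducing fatty acid oxidation in liver, had values of 218, 324 and 400.0 in the controls and 166, 321 and 328 with the inhibitor. It was lower with the inhibitor in each experiment, with log2 differences of -0.39, -0.013 and -0.29, but the controls themselves spanned most of the range. PPARG (ENSG00000132170.19, chr3:12287368-12434344), the receptor of adipocyte differentiation, had 782, 889 and 863 in the controls and 734, 901 and 410.0 with the inhibitor. Inhibitor sample 2 was the highest and inhibitor sample 3 the lowest of the 6, and the difference of -0.38 ± 0.28 was -0.053 without inhibitor sample 3.

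The lipid storage genes had 4 of 7 members higher (49.4% of all genes) and a median of 0.062. DGAT1 and DGAT2 are unrelated enzymes that both make triglyceride in its last step. DGAT1 (ENSG00000185000.9, on chromosome 8) had values of 1685, 1994 and 2203 in the controls and 1571, 2049 and 925 with the inhibitor. Inhibitor samples 3 and 1 were the lowest of the 6 and inhibitor sample 2 lay within the controls, and the difference of -0.44 ± 0.28 was -0.12 without inhibitor sample 3. DGAT2 (chr11:75768778-75801534) was found at 345, 440.1 and 397 in the controls and 405, 516 and 328 with the inhibitor, with a difference of 0.062 ± 0.20.

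Of the droplet coat genes, PLIN2 (chr9:19108388-19127492), which coats droplets in most cell types, was measured at low values, with 28.7, 35.2 and 27.9 in the controls and 34.1, 25.3 and 12.5 with the inhibitor. Its difference of -0.44 ± 0.43 was the most negative of the 37, had an interval of -1.44 to 0.56 and was -0.051 without inhibitor sample 3. PLIN3 (chr19:4838341-4867667), a coat of small droplets, had 1371, 1354 and 1323 in the controls, which were nearly equal, and 1112, 1342 and 1924 with the inhibitor. Inhibitor samples 1 and 3 lay on opposite sides of the controls, and the difference was 0.075 ± 0.20.

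PNPLA2 (ENSG00000177666.15, chr11:818914-825573) encodes adipose triglyceride lipase, which starts the breakdown of stored triglyceride. It had values of 1312, 1164 and 1239 in the controls and 1282, 1190.1 and 2266 with the inhibitor, and only inhibitor sample 3 left the range of the controls on the high side. The difference of 0.29 ± 0.24 was -0.0020 without that sample. HILPDA (chr7:128455878-128458418), a hypoxia-inducible inhibitor of that lipase, had 281, 326 and 290.4 in the controls and 257, 325 and 157 with the inhibitor. Inhibitor sample 3 was the lowest, and the differences by experiment were -0.13, -0.0041 and -0.89. LIPE, the hormone-sensitive lipase, differed by 0.065 ± 0.19.

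Across the experiments, 8 of the 37 genes had a difference of the same sign in all 3 (24.4% of all genes). The inhibitor sample was the higher one in each experiment for HADHB, ECI1, DECR1, DECR2 and ACAA1 (12.2% of all genes). It was the lower one in each for ACAD9, PPARA and HILPDA (12.2% of all genes). The size differed between experiments, with a median absolute log2 difference of the 37 genes of 0.22 in experiment 1, 0.072 in experiment 2 and 0.50 in experiment 3. Over all genes tested the same medians were 0.17, 0.092 and 0.44. Experiment 3 held 5 of the 37 genes with a difference over 2-fold (SLC25A20, HSD17B4, PPARG, DGAT1 and PLIN2), or 13.5% beside 18.4% of all genes, and the other experiments held 0.

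**Figure D4:**
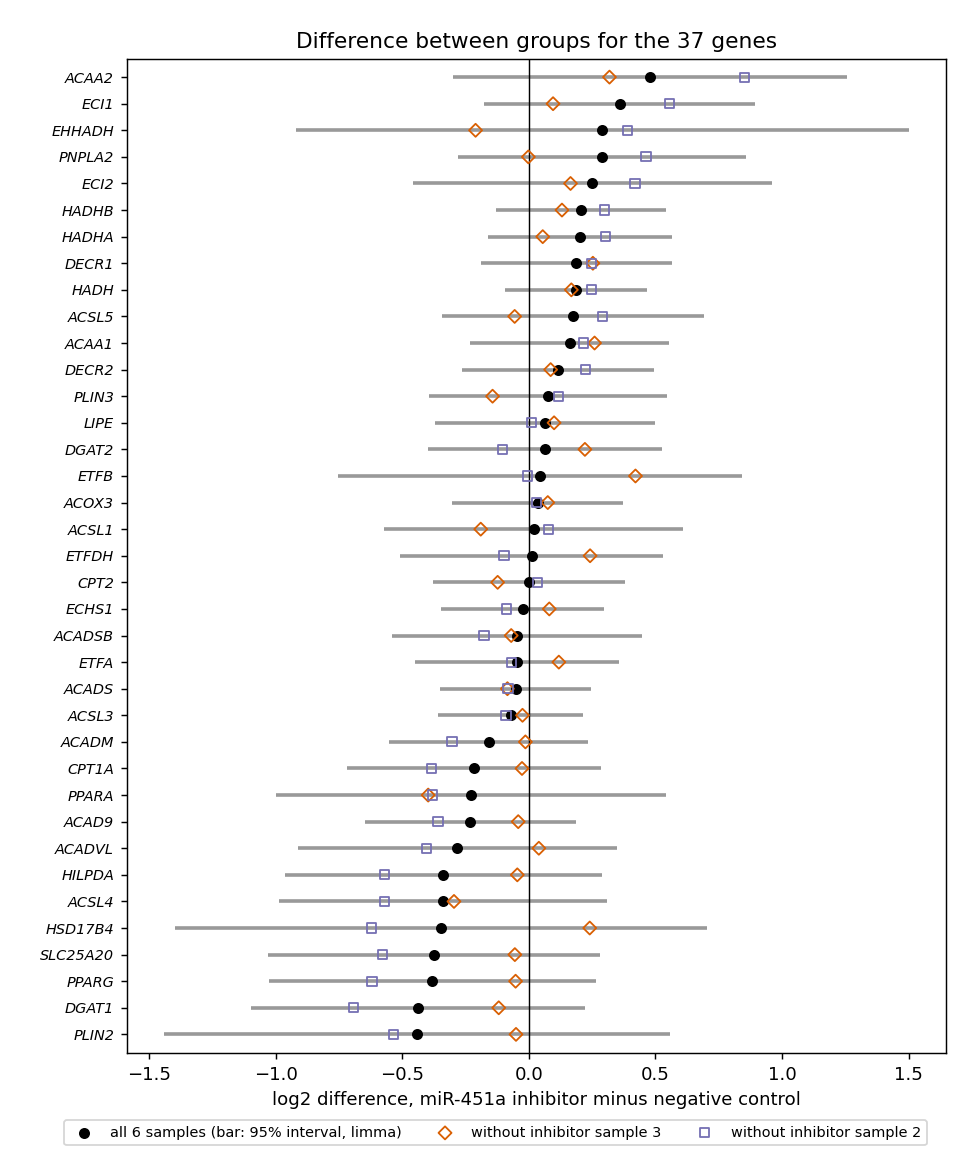
Log2 difference (inhibitor minus negative control) of the 37 genes in order of size, with the 95% interval from limma as a bar, and the same difference without inhibitor sample 3 (diamonds) or without inhibitor sample 2 (squares). Every interval includes 0, and for HSD17B4 the value goes from -0.35 with all samples to 0.24 without inhibitor sample 3.

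Inhibitor sample 3 held the lowest value of 16 of the 37 genes (35.7% of all genes) and the highest of 9 (34.7% of all genes). Of the 34 genes averaging 50 or more, HSD17B4, PPARG and DGAT1 deviated by over 2-fold there, beside the 12.4% of all such genes. Without inhibitor sample 3, the groups of CPT2, ECHS1, ACOX3, HSD17B4 and ETFDH did not overlap (14.1% of all genes), and 0 genes had an unadjusted limma p below 0.05 (1.41% of all genes). Without inhibitor sample 2, 13 of the 37 did not overlap (30.7% of all genes), and ACAA2, ECI1, PPARG and DGAT1 had an unadjusted limma p below 0.05, beside 10.7% of all genes. Without both samples of experiment 2, 14 of the 37 did not overlap (36.2% of all genes). With the experiment as a replicate block, none of the 37 had an unadjusted limma p below 0.05 (1.01% of all genes). No gene of the 37 passed the adjusted threshold in any of these fits (0% of all genes in each). The part of either library's handling in these values was not tested.

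Other genes of the same pathways were described from 4 lists, and none of their members passed the test or had an unadjusted limma p below 0.05. Of 30 other oxidation genes tested, 23 were higher and 7 lower by their mean, where 49.4% of all genes were higher. Their median was 0.14, and 0.078 without inhibitor sample 3. The groups did not overlap for 1 of the 30, the peroxisomal thiolase and sterol carrier SCP2 (1062, 1051 and 960.2 in the controls and 1350.3, 1147 and 1096 with the inhibitor), beside 5.61% of all genes. The smallest p value of that list belonged to ACOT4, a peroxisomal acyl-CoA thioesterase, with a difference of 0.46 ± 0.24. Of 15 fatty acid uptake and binding genes, 6 were higher and 9 lower, led by ACSS2 (acetyl-CoA synthetase, -0.42 ± 0.28) and SLC27A2 (a fatty acid transporter and very long-chain synthetase, -0.31 ± 0.24). Of 32 other storage and lipolysis genes, 15 were higher and 17 lower. Their smallest p values were for PNPLA3, a droplet-associated relative of PNPLA2 (-1.52 ± 0.75), and LPCAT2, a lysophosphatidylcholine acyltransferase (-0.40 ± 0.23). PNPLA3 was at 17.6, 98.2 and 11.4 in inhibitor samples 1 to 3 and at 58.3 to 116 in the controls. Of 25 PPAR partners and regulators, 10 were higher and 15 lower, led by the coactivators PPARGC1B (-0.44 ± 0.22) and PPARGC1A (0.67 ± 0.48). PPARGC1A was at 1135 in inhibitor sample 3 and at no more than 489 in the other samples. The medians of these 3 lists were -0.021, -0.040 and -0.044, beside the -0.0035 of all genes. With each sample left out in turn they ran from -0.22 to 0.013, from -0.089 to -0.011 and from -0.11 to 0.10.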

How the data were processed

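Polyadenylated RNA of 6 OE19 samples was sequenced as paired-end stranded libraries. Per the submitters' processing notes and the methods, reads were trimmed with cutadapt 1.8, checked with FastQC 0.11.8 and aligned with STAR 2.7.0f to GRCh38. The tool that counted reads, its strand setting and its annotation were not given in the sources used here, and 8 of the 37 genes overlap another protein-coding gene. The authors corrected gene counts for GC content and length inside each sample (EDASeq) and then scaled across samples (DESeq2), and the deposited values are this normalized signal. Each value was a whole number, to a relative tolerance of 1e-06, after division by the smallest value above 0 of its sample (100% of values). These whole numbers are adjusted counts, not reads, and 15 genes shared the top value of each sample, so levels were not compared between genes.

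Genes averaging 10 or more were tested on log2(value + 1) with limma 3.58.1 (R 4.3.3), moderated with a trend, two-sided, with Benjamini-Hochberg adjustment over 12723 genes. The authors' Mann-Whitney test cannot give a two-sided exact p below 0.1 with 3 samples against 3, so it was an alternative, as were edgeR 4.0.16 and DESeq2 1.42.0 on the whole numbers, TMM scaling, pseudocounts of 0.5 and 10, other filters, sample weights, a replicate block and leaving out samples. Both count tests called 0 genes at an adjusted p below 0.05 (163 genes in edgeR and 250 in DESeq2 at an unadjusted p below 0.05). Column headers number the experiments that the groups share, and deviations of same-numbered samples correlated at 0.21, 0.15 and -0.0043 over 12723 genes. On simulated data for this comparison (12723 genes), 41 of 100 genes changed 2-fold and 91 of 100 changed 4-fold were called. There were 7 calls among 12523 unchanged genes. These rates describe the simulated samples only. Among the real samples, inhibitor sample 3 stood apart, and negative control 2 and inhibitor sample 2 were the closest pair. The rates were not shown to hold for samples with these features, so they do not measure the power of the real comparison.

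The genes, lists and tests were chosen with earlier results of these data known. Values per sample were given for the 8 genes with the smallest p, any gene with a log2 difference of at least 0.5 or with groups that did not overlap, and further genes named whatever their values. The top 2 genes by p of each related list were also named, apart from 1 that is not reported here. Coordinates and promoter windows are from RefSeq (GRCh38.p14).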

Additional observations from a re-analysis of the deposited data

How the results depend on the processing

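No gene of the 37 passed the adjusted threshold under any alternative that gave a test (TMM scaling, pseudocounts of 0.5 and 10, no filter or a mean of at least 50, the replicate block, sample weights, leaving out samples, Mann-Whitney, edgeR and DESeq2). Of these, the Mann-Whitney test could not pass any gene, since its exact p cannot fall below 0.1 here. Over all genes, 0% passed in edgeR, DESeq2, Mann-Whitney, the replicate block and sample weights, and without inhibitor sample 2 or 3. The smallest adjusted p of any of the 37 in a limma alternative was 0.468. With the replicate block, 0 of the 37 passed and 128 of all genes had an unadjusted p below 0.05 (1.01%), and the block changed no call. With sample weights the median difference of the lipid storage genes was -0.12, and the sign turned for CPT1A (0.030), ACSL1 (-0.015), ACADVL (0.0023), ECHS1 (0.047), HSD17B4 (0.077), EHHADH (-0.072), ETFA (0.14) and PLIN3 (-0.12). In all, 54 of 552 differences had the opposite sign under an alternative, while 16 genes, among them HADHA, HADHB, HADH, ACAA2 and ECI1, never turned, although HADHA was 0.055 and HADHB 0.13 without inhibitor sample 3. The 552 include the filters and the replicate block, which cannot change a difference, so no sign could turn there. When samples were left out 1 at a time, or both samples of experiment 2 or of experiment 3 (an alternative chosen after seeing the data), the count of genes whose groups did not overlap ran from 0 to 14, that with an unadjusted p below 0.05 from 0 to 4, the median of the 37 from -0.067 to 0.045 and that of the lipid storage genes from -0.11 to 0.078. The highest count of genes that did not overlap came without experiment 2 (14 genes, 36.2% of all genes). That of genes with an unadjusted limma p below 0.05 came without inhibitor sample 2 (4 genes, 10.7% of all genes). The log2 difference changed sign over these settings for ACADM (-0.30 to 0.011), ACADS (-0.12 to 0.012), ACADSB (-0.25 to 0.11), ACADVL (-0.48 to 0.039), ACOX3 (-0.00014 to 0.078), ACSL1 (-0.19 to 0.24), ACSL5 (-0.056 to 0.29), CPT1A (-0.50 to 0.013), CPT2 (-0.15 to 0.090), DGAT2 (-0.11 to 0.23) and ECHS1 (-0.089 to 0.11). It also changed sign for EHHADH (-0.21 to 0.69), ETFA (-0.19 to 0.16), ETFB (-0.29 to 0.42), ETFDH (-0.11 to 0.29), HSD17B4 (-0.66 to 0.24), LIPE (-0.082 to 0.19), PLIN3 (-0.16 to 0.25), PNPLA2 (-0.0020 to 0.46), PPARA (-0.47 to 0.090) and SLC25A20 (-0.64 to 0.068). Medians of role groups and related lists without single samples were also added after seeing the data. With 3 samples per group, 7 of the 37 intervals reached past 2-fold.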

Other observations

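Of 92 genes of the related lists averaging 50 or more, 12 deviated in inhibitor sample 3 by over 2-fold from the median of the remaining samples (13.0%, beside 12.4% of all such genes). Of these, 8 were high there (ACOT1, ACSM3, FABP3, MOGAT3, PHYH, PPARD, PPARGC1A and SLC27A3) and 4 were low (CPT1C, LIPA, LPCAT1 and PNPLA3). ACOT1 has a near-identical copy, so its value is uncertain. The genes described next were chosen after their values were seen. PPARD, the third PPAR receptor, was measured at 576, 450.3 and 1637 in inhibitor samples 1 to 3 and at no more than 627 in the other 5 samples. PPARGC1A, a coactivator of mitochondrial genes, had 489, 278 and 261 in the controls and 403, 316 and 1135 with the inhibitor. PHYH, the peroxisomal enzyme of phytanic acid breakdown, had 379.9, 319 and 294 in the controls and 411, 351 and 885 with the inhibitor. MOGAT3, a monoacylglycerol acyltransferase, had 49.2, 68.4 and 135 in the controls and 61.9, 51.6 and 659 with the inhibitor. In the low direction, LIPA, the lysosomal acid lipase, had 1032, 1066 and 1120.4 in the controls and 972, 1111 and 472 with the inhibitor, and LPCAT1, a lysophosphatidylcholine acyltransferase, had 482, 382 and 418 and 454, 403 and 202. None of these genes passed the limma test, and a cause was not tested.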
